A study of Mus musculus with 3 samples.

Results

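The cells described here were the 509 cells that the authors' clustering had placed in cluster 6, out of 15242 retinal cells of mice in all. They were proposed as bipolar cells marked by Igfn1, Vsx1, Cartpt and Il1rapl2, and every cell carrying that cluster number in any of the 3 libraries was taken, which gave 177 (WT), 180 (rd10-vehicle) and 152 cells (rd10-TMB). The markers were checked first. Igfn1, Vsx1 and Il1rapl2 were found together in 1 kind of cell, whereas Cartpt was found in another, so the cluster was taken apart before any group was compared.

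Bipolar cells carry the signal of photoreceptors to amacrine and ganglion cells. ON bipolar cells sense glutamate with the metabotropic receptor mGluR6 (Grm6), which acts through a G protein to close the channel TRPM1, so that a fall in glutamate in the light depolarises them, whereas OFF cone bipolar cells use ionotropic glutamate receptors. Within the ON cone bipolar types, Vsx1, a homeobox transcription factor, and Igfn1, a protein with immunoglobulin and fibronectin type III domains, are known as markers of the cells called type 7.

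Each group was 1 droplet library of papain-dissociated retinas, made with 10x Genomics v3 chemistry. Mice in all groups were of the C57BL/6J strain, 8 weeks old and, by the labels, kept in the dark for life. WT mice were wild type on plain chow. The rd10-vehicle mice had the rd10 genotype, a point mutation in Pde6b, which encodes a subunit of the rod phosphodiesterase and whose defect leads to the death of rods followed by cones, and ate the same plain chow. The rd10-TMB mice had the same genotype and ate chow with tamsulosin, a blocker of alpha-1 adrenergic receptors, metoprolol, a blocker of beta-1 adrenergic receptors, and bromocriptine, an agonist of D2-like dopamine receptors. By the labels 4 mice gave a retina to each pool, but the methods of the study count fewer mice in the rd10 pools, and that difference could not be settled here. The WT pool mixed the sexes and both rd10 pools were female, so genotype, sex and library cannot be told apart in the comparisons with WT.

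Levels are given in CPM, the unique molecular identifiers (UMIs, each standing for a captured transcript) of a gene summed over the cells of a library and scaled so that all genes of those cells sum to 1e6. Cluster 6 held 896316 (WT), 687287 (rd10-vehicle) and 694561 UMIs (rd10-TMB). The median depth per cell was 5208, 4077 and 4889 UMIs in the same order. With a single library per group no test between groups was possible, and the 95% intervals given in parentheses cover counting error only. The 3 comparisons share libraries with each other and are not independent. No barcode of a cluster 6 cell occurred in another library.

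The cluster held 2 kinds of cell that barely overlapped. For each cell the UMIs of 7 ON bipolar genes (Grm6, Trpm1, Isl1, Gng13, Nyx, Gpr179 and Rgs11) were set against those of 8 amacrine genes (Tfap2a, Tfap2b, Gad1, Gad2, Slc32a1, Slc6a9, Pax6 and C1ql2), and a cell was put with the larger sum. This division was made after the values were seen. It gave 465 ON bipolar cells, 43 amacrine-marker cells and 1 WT cell with equal sums. Of the 465 ON bipolar cells, 422 had no UMI of the amacrine genes, 39 had 1 and 4 had more. Of the 43 amacrine-marker cells, 33 had no UMI of the ON genes and the highest sum was 5. Only 16 cells lay within 3 UMIs of the boundary.

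**Figure D1:**
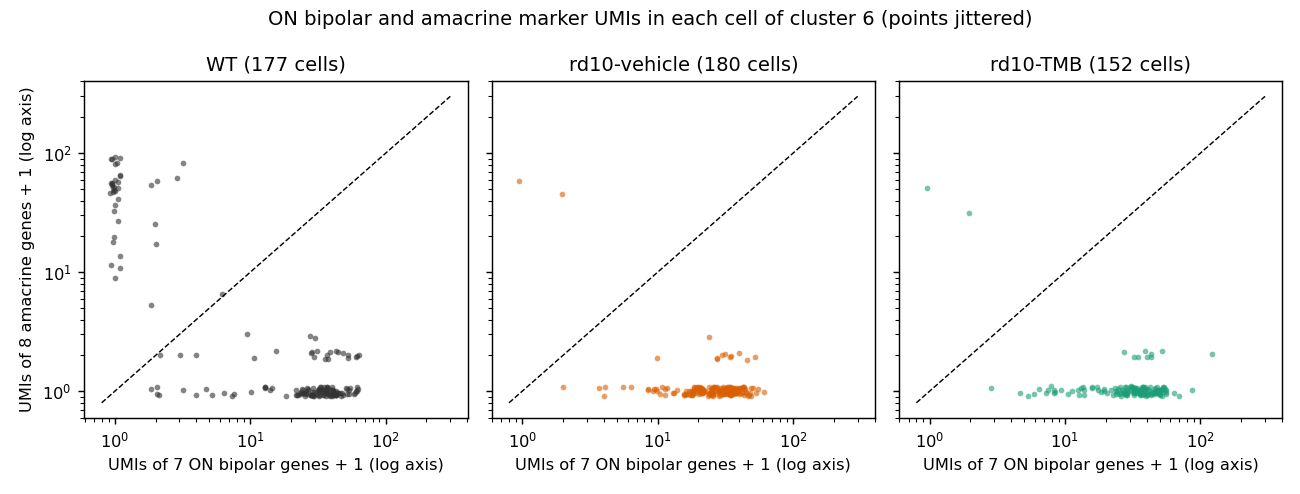
Summed UMIs of the 7 ON bipolar genes (horizontal axis) and of the 8 amacrine genes (vertical axis) in each of the 509 cells of cluster 6, with colours for the 3 libraries. The 465 ON bipolar cells lie along the horizontal axis and the 43 amacrine-marker cells along the vertical axis, where 39 of them are WT cells.

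The amacrine-marker cells were nearly all from WT. They made up 22.0% (16.2 to 28.9) of cluster 6 in WT, with 39 cells, 1.11% (0.13 to 3.96) in rd10-vehicle, with 2 cells, and 1.32% (0.16 to 4.67) in rd10-TMB, with 2 cells. The intervals of the rd10 libraries did not reach that of WT. Cells of clusters 5 and 9, which carry amacrine markers, likewise made up 16.9% of all WT cells and 1.76% and 1.72% of those from vehicle- and TMB-fed rd10 mice, so the uneven share was found for amacrine cells in these libraries generally. The amacrine-marker cells also had a lower median mitochondrial share of UMIs, 2.16% in WT, than the ON bipolar cells of the same library, 6.23%. The cause of the uneven share was not tested.

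Cartpt, which encodes the neuropeptide precursor CART, belonged to the amacrine-marker cells (chr13:99898483-99910179, build mm10). Of its 7675 UMIs in cluster 6, 7668 were in those cells, and 42 of the 43 had it, with a median of 177 UMIs per cell and up to 426. In the ON bipolar cells Cartpt had 6 UMIs in WT, 1 with vehicle and none with TMB. The share of ON bipolar cells with a Cartpt UMI was 4.38%, 0.56% and 0% (0 of 150 cells, which allows up to 2%), not above the 4.41%, 1.26% and 1.07% of rods (cluster 1), which had a median of only 1423, 1406 and 1536 UMIs per cell. Read against that background, Cartpt was not detected as a transcript of the ON bipolar cells. Its summed level was 27649.6 CPM in the amacrine-marker cells and 3.50 CPM in the ON bipolar cells.

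Other leading genes of the amacrine-marker cells were Tfap2b, an amacrine transcription factor, at 3252 CPM, Gad1, the enzyme that makes GABA, at 1576 CPM, and Kit, a receptor tyrosine kinase, at 844 CPM. Kit and Syt10, a synaptotagmin, set them apart from the main amacrine clusters 5 and 9, where Kit was at 2.13 CPM and Syt10 at 2.93 CPM against 566 CPM here. They were GABA-synthesising amacrine-like cells with very high Cartpt, and no bipolar name was given to them.

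The other ON clusters (2, 3 and 10) were checked for amacrine-marker cells by the same rule, after their values were seen. Cluster 10, which carries ON genes, was mixed as well, with amacrine-marker cells making up 38.5% of its WT cells, 7.48% with vehicle and 16.3% with TMB. In cluster 3 they were 9.07% in WT and at most 0.2% in the rd10 libraries, and in cluster 2 none were found. Values for the whole of cluster 10 therefore also move with this mixture, and those of its ON cells alone are given beside them.

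Summed over the 465 ON bipolar cells, markers of type 7 ON cone bipolar cells were high. Igfn1 (chr1:135953205-136040925) was at 446 CPM, compared with 28.2 CPM in cluster 2, the rod bipolar cluster, and 19.2 CPM in cluster 3, the largest ON cone bipolar cluster. Vsx1 (chr2:150680702-150689137) was at 713 CPM, with 449 CPM in cluster 10, or 731 CPM in the ON cells of cluster 10 alone, and 13.1 CPM in cluster 3. Il1rapl2 (chrX:137570754-138849077), which encodes a synaptic protein of the interleukin-1 receptor family, was at 115 CPM and at 23.1 CPM in cluster 3. So Vsx1 was shared with cluster 10, while Igfn1 and Il1rapl2 were far lower in every other bipolar cluster.

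The same cells expressed the ON machinery and had little of the genes that mark neighbouring classes. Grm6, Isl1 and Gng13 were among the 7 ON genes that picked these cells, so their presence was required by that rule. Grm6 was at 643 CPM, compared with 726 CPM in cluster 2, 529 CPM in cluster 3 and 1024.5 CPM in the ON cells of cluster 10, and well above the 21.9 and 42.6 CPM of the OFF clusters 7 and 8. Isl1, a transcription factor of ON bipolar cells, was at 538 CPM and Gng13, the G protein gamma subunit of the mGluR6 cascade, at 3934 CPM. Prkca, the protein kinase that defines rod bipolar cells, was at 24.5 CPM, compared with 2758 CPM in cluster 2. Grik1, a kainate receptor of OFF types, was at 7.001 CPM against 1340.4 CPM in cluster 7, and Cabp5, a calcium-binding protein of rod bipolar, type 5 and OFF type 3 cells, was at 24.0 CPM against 1123 CPM in cluster 3. The name type 7 ON cone bipolar-like was given to the 404 of these cells that had a UMI of Igfn1 or Vsx1, and not to the 61 that had neither. Since Vsx1 was shared with cluster 10, the name is less certain for the 83 of the 404 cells that had Vsx1 without Igfn1.

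**Figure D2:**
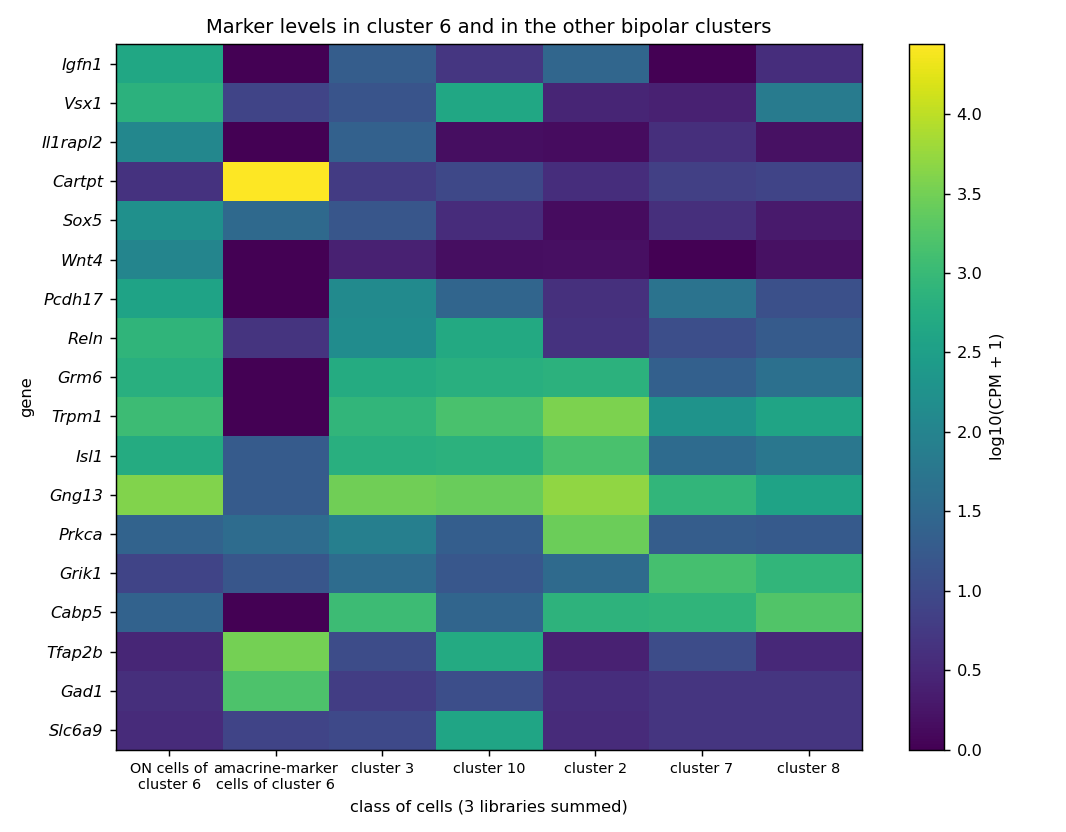
Level of marker genes (log10 of CPM plus 1, colour scale) in the ON bipolar and amacrine-marker cells of cluster 6 and in the other bipolar clusters. Igfn1 and Il1rapl2 are highest in the ON bipolar cells of cluster 6, Vsx1 is shared with cluster 10, which is drawn with its amacrine-marker cells, and Cartpt stands only in the amacrine-marker cells among these columns.

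Across 3677 genes, the profile of the ON bipolar cells was most like that of cluster 3 (Pearson r = 0.92 over genes on log2 CPM), followed by cluster 10 with its amacrine-marker cells (r = 0.85) and the OFF cluster 8 (r = 0.83), whereas the amacrine-marker cells of the same cluster had r = 0.54. These values describe genes, which are not independent, and reflect shared housekeeping levels as well as cell type.

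Ranked by their ratio to the other bipolar clusters together, which is a description because these cells were clustered on their own expression, the ON bipolar cells were led by Wnt4, a secreted Wnt ligand (chr4:137277635-137299501). It was at 102 CPM against 0.73 CPM, a ratio of 129. Sox5, a transcription factor of the SoxD group, was at 168 CPM, 38.8 times the other clusters, and Fn1, the matrix protein fibronectin, was at 264 CPM, 19.96 times. Serpine2, an inhibitor of extracellular proteases, was 38.0 times higher and Adra2c, the alpha-2C adrenergic receptor, 11.5 times, at 177 CPM, although the ON cells of cluster 10 had 132 CPM of Adra2c and so shared it. Other leading genes were Disp1, which takes part in the release of Hedgehog ligands, Palld, an actin-binding protein, Kcnab1, a potassium channel subunit, and Ano2, a calcium-activated chloride channel. Cabp2, a calcium-binding protein, was at 369 CPM and Reln, a secreted matrix protein, at 795 CPM, compared with 108 and 141 CPM in cluster 3 and with 274 and 809 CPM in the ON cells of cluster 10, so that Reln was shared with those cells.

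Not every ON bipolar cell had the 2 leading markers. Igfn1 was detected in 71.5% (WT), 65.7% (rd10-vehicle) and 70.7% (rd10-TMB) of ON bipolar cells, where rods had 0.25%, 0.36% and 0.67%. After each cell was thinned to 1000 UMIs, which left 127, 174 and 143 cells, the shares were 26.8%, 35.6% and 28.7%. Vsx1 was detected in 78.1%, 83.7% and 78.0%, and in 49.6%, 49.4% and 47.6% at equal depth. Both genes were thus well above the rod background and similar between libraries. Both were found in 290 cells, Igfn1 alone in 31, Vsx1 alone in 83 and neither in 61 cells (13.1%). The cells with neither were shallower, with a median of 2864 UMIs against 4643.5 in the others.

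The 61 cells with neither gene also had little Il1rapl2, Sox5 and Pcdh17. These genes had not been used to pick the cells, but they were named after the values were seen, from the genes lowest there. Their values therefore describe the 61 cells and are not a separate check. Of the 61 cells, 16 were in WT and 19 and 26 in the vehicle and TMB libraries. Il1rapl2 had 0 UMIs in them, which allows up to 18.2 CPM with 3 counts, against 230 UMIs and 125 CPM in the 404 cells with Igfn1 or Vsx1. Sox5 was at 12.1 CPM against 182 CPM, and Pcdh17, a protocadherin, at 36.3 CPM against 409.9 CPM. Cabp2, at 363 CPM against 369.6 CPM, and Reln, at 484 CPM against 823 CPM, were not low in the same way. Of the 61 cells, 56 (91.8%) had no UMI of Il1rapl2, Sox5 or Pcdh17, compared with 47 of the 404 others (11.6%).

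The ON genes were present in the same cells, as the rule that set them apart from amacrine-marker cells required. Grm6 was at 1041 CPM against 607 CPM, Trpm1 at 1767 CPM against 1039.6 CPM and Isl1 at 884 CPM against 507 CPM. Genes that stood higher in them, chosen after their values were seen, were Lrp1b, a lipoprotein receptor-related gene, with 54 UMIs against 5 in the 404 others, Csmd3 with 71 against 11, Adarb2, a relative of RNA-editing enzymes, with 51 against 9, and Pcdh7, a protocadherin, with 51 against 18. Cck, the precursor of cholecystokinin, was at 508 CPM against 24.5 CPM. A UMI of Csmd3, Adarb2 or Pcdh7 occurred in 36 of the 61 cells (59.0%) and in 17 of the 404 others (4.21%). Over 1668 genes the 61 cells had r = 0.89 with cluster 3, r = 0.88 with the ON cells of cluster 10 and r = 0.85 with the 404 cells beside them, and the 404 cells had r = 0.90 with cluster 3 and r = 0.85 with the ON cells of cluster 10. No type name was given to these 61 cells, and the values below are also given without them where that matters.

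The share of ON bipolar cells among all recovered cells was alike in the 3 libraries. It was 3.06% (2.57 to 3.61) in WT, 2.99% (2.57 to 3.46) in rd10-vehicle and 3.12% (2.64 to 3.65) in rd10-TMB, whereas the whole cluster, with its amacrine-marker cells, had 3.95% (3.40 to 4.57), 3.02% (2.60 to 3.49) and 3.16% (2.68 to 3.69). Of all cells in the bipolar clusters, ON bipolar cells of cluster 6 were 9.26%, 9.65% and 9.45%, again with overlapping intervals. Rods (cluster 1) were 26.4% of WT cells, 9.34% with vehicle and 15.5% with TMB, so a share of all cells also moves with how many rods were recovered. Outside the rod and Müller glia clusters the shares were 4.95% (4.17 to 5.82), 6.13% (5.28 to 7.06) and 6.47% (5.50 to 7.55), where the lower number of amacrine cells in rd10 enters the denominator. Shares of recovered cells are not numbers of cells per retina.

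Compared as deposited, cluster 6 appeared to differ strongly between WT and rd10. Among genes with at least 100 UMIs over a pair of libraries, 81 of 3077 (2.63%) were at least 2-fold apart between rd10-vehicle and WT, 71 of them lower. For rd10-TMB and WT these were 77 of 3083 (2.5%), with 74 lower, but for rd10-TMB and rd10-vehicle only 4 of 2677 (0.149%), all higher. The lowest genes were those of the amacrine-marker cells. Kit had 219 UMIs in WT and 5 in rd10-vehicle (log2 ratio -4.81), and Cartpt was at 7767 CPM in WT and 355 CPM in rd10-vehicle (-4.45). Gad1 had a log2 ratio of -3.97 in rd10-vehicle and -4.31 in rd10-TMB against WT. Of the 71 lower genes, 70 were at least 2-fold higher in amacrine-marker than in ON bipolar cells, and of the 74, all 74 were.

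Without the amacrine-marker cells far fewer genes were counted as 2-fold apart. In the ON bipolar cells 5 of 2531 genes (0.198%) were at least 2-fold apart between rd10-vehicle and WT, 6 of 2563 (0.234%) between rd10-TMB and WT, and 3 of 2619 (0.115%) between rd10-TMB and rd10-vehicle. Only 2 of the 71 lower genes and 1 of the 74 were also at least 2-fold lower there with 100 UMIs or more. Many of them lost their UMIs with the amacrine-marker cells and could not be compared, since only 45 of the 71 and 51 of the 74 had 20 UMIs left, of which 39 and 48 were within 2-fold. The median log2 ratio over all these genes was between 0.00 and 0.02 in the 3 comparisons, so no common shift had to be allowed for. All values from here on are for the 465 ON bipolar cells unless the whole cluster is named. Their UMIs totalled 642619 for WT, 674752 with vehicle and 682246 with TMB.

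**Figure D3:**
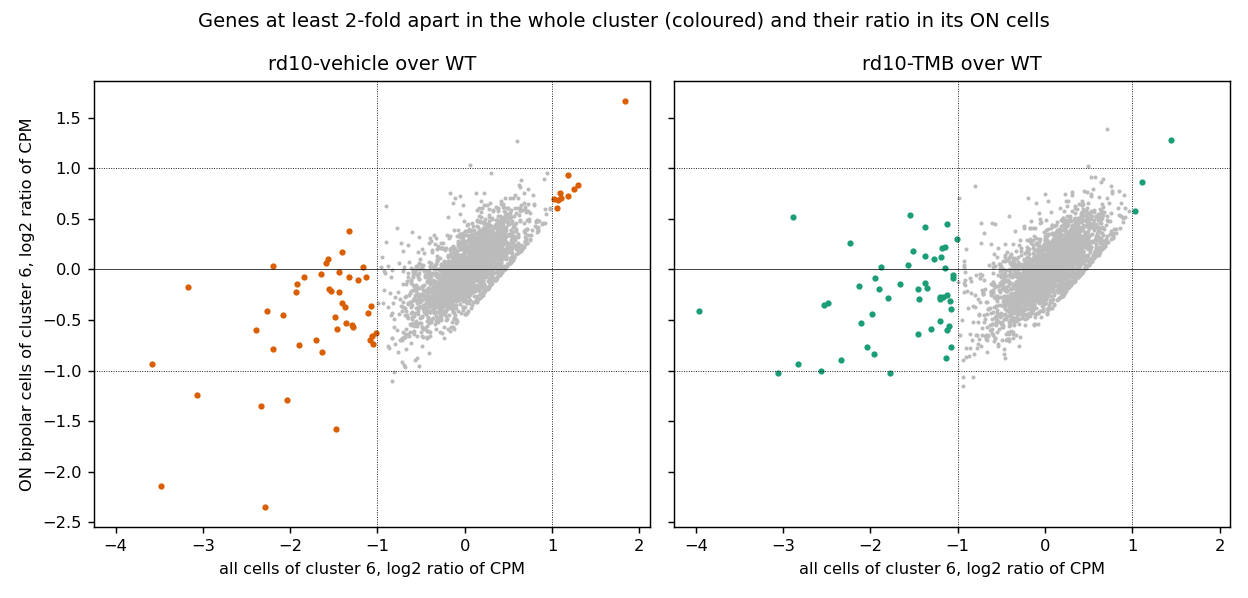
Log2 ratios against WT in the whole cluster (horizontal axis), with genes at least 2-fold apart there in colour, and of the same genes in the ON bipolar cells alone (vertical axis), for genes with at least 20 UMIs in ON bipolar cells. Grey points are the other genes. Of the 45 lower genes drawn for rd10-vehicle, 39 lie within 2-fold in the ON bipolar cells, and of the 51 drawn for rd10-TMB, 48 do.

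The type 7 markers were at similar levels in the 3 libraries. Igfn1 was at 423 (WT), 477 (rd10-vehicle) and 437 CPM (rd10-TMB), with a log2 ratio of rd10-vehicle to WT of 0.17 (-0.06 to 0.41). Vsx1 was at 675, 734 and 728 CPM, and Il1rapl2 at 118, 119 and 108 CPM. None of their 9 ratios had an interval that left out 0. Sox5 was at 188, 163 and 152 CPM, Reln at 767, 817 and 799 CPM and Cabp2 at 377, 351 and 379.6 CPM, also without an interval beyond 0. Pcdh17 was lower in rd10-TMB, at 314 CPM, than in WT at 425 CPM (log2 -0.44, -0.70 to -0.17) and rd10-vehicle at 402 CPM. Wnt4 was at 77.8, 136 and 90.9 CPM, and so higher in rd10-vehicle than in WT (0.80, 0.30 to 1.34) and than in rd10-TMB. Fn1 followed the same order, at 207, 316 and 265 CPM.

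The genes of the mGluR6 cascade differed from WT in both directions. Of 13 genes of the cascade with at least 20 UMIs, 9 were higher and 4 lower in rd10-vehicle than in WT (median log2 0.06, which turned to -0.02, with 6 higher and 7 lower, in cells with at least 8 ON and at most 1 amacrine UMI), where 50.8% of all 7503 such genes were higher. In rd10-TMB against WT 9 were higher and 4 lower (median 0.18, background 52.1% of 7480), and in rd10-TMB against rd10-vehicle 7 were higher and 6 lower (median 0.07, background 49.4% of 7568). No member with 100 UMIs was 2-fold apart in any pair.

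By role, the receptor Grm6 (chr11:50850369-50866208) was at 587 (WT), 677 (rd10-vehicle) and 663 CPM (rd10-TMB) (rd10-vehicle over WT 0.21, 0.01 to 0.41). The channel Trpm1 was at 934, 1206 and 1151 CPM, which put rd10-vehicle 0.37 (0.22 to 0.52) and rd10-TMB 0.30 (0.15 to 0.46) above WT on the log2 scale. Among the G protein subunits, Gnao1, the alpha subunit, was at 766, 725 and 721 CPM. Gnb3, the beta subunit, was at 2026, 2482 and 2329 CPM (0.29, 0.19 to 0.40, for rd10-vehicle over WT), and Gng13, the gamma subunit, at 3864, 3869.6 and 4065 CPM. The WT pool held both sexes, and when it was reduced to the female-like cells, which carried Xist but none of the Y-linked UMIs, the ratio of Trpm1 was 0.35 with vehicle and 0.28 with TMB, that of Gnb3 0.13 and 0.04, and that of Grm6 0.12 and 0.09. So Trpm1 was higher in both rd10 libraries either way, whereas the higher Gnb3 and Grm6 shrank with the choice of WT cells.

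Nyx, which encodes nyctalopin, a protein that places the channel at the dendrite tip, was at 74.7, 123 and 92.3 CPM (chrX:13461090-13492820), 0.71 (0.19 to 1.26) higher in rd10-vehicle than in WT. Gpr179, the receptor that anchors the GTPase-activating proteins, was at 543, 480.2 and 520.3 CPM, and Rgs11, one of those proteins, at 205, 246 and 258 CPM. Gnb5, their partner, was at 512, 599 and 580.4 CPM. Rgs7, the other GTPase-activating protein, had only 10, 11 and 25 UMIs, too few to rank. Pcp2, a modulator of the G protein, was lower in rd10-vehicle at 2746 CPM than in WT at 3273 CPM (-0.25, -0.34 to -0.16), with 3027 CPM in rd10-TMB.

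Some ratios of these cascade genes were not the same in other bipolar clusters. For rd10-vehicle over WT, Trpm1 had a log2 ratio of -0.08 in rod bipolar cluster 2, beside 0.37 in the ON bipolar cells of cluster 6. It was at 0.46 in the ON cells of cluster 3 and 0.23 in those of cluster 10, both within the interval given above for cluster 6. Pcp2 was at -0.07 in cluster 2, -0.09 in the ON cells of cluster 3 and -0.25 here. In the ON cells of cluster 10, where its level was only 97.0 CPM, it was at 1.95. Over all cells, amacrine-marker cells included, the ratio of Trpm1 was 0.56 in cluster 3 and 1.13 in cluster 10. These differences between clusters were not tested, as each rests on 1 library per group.

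**Figure D4:**
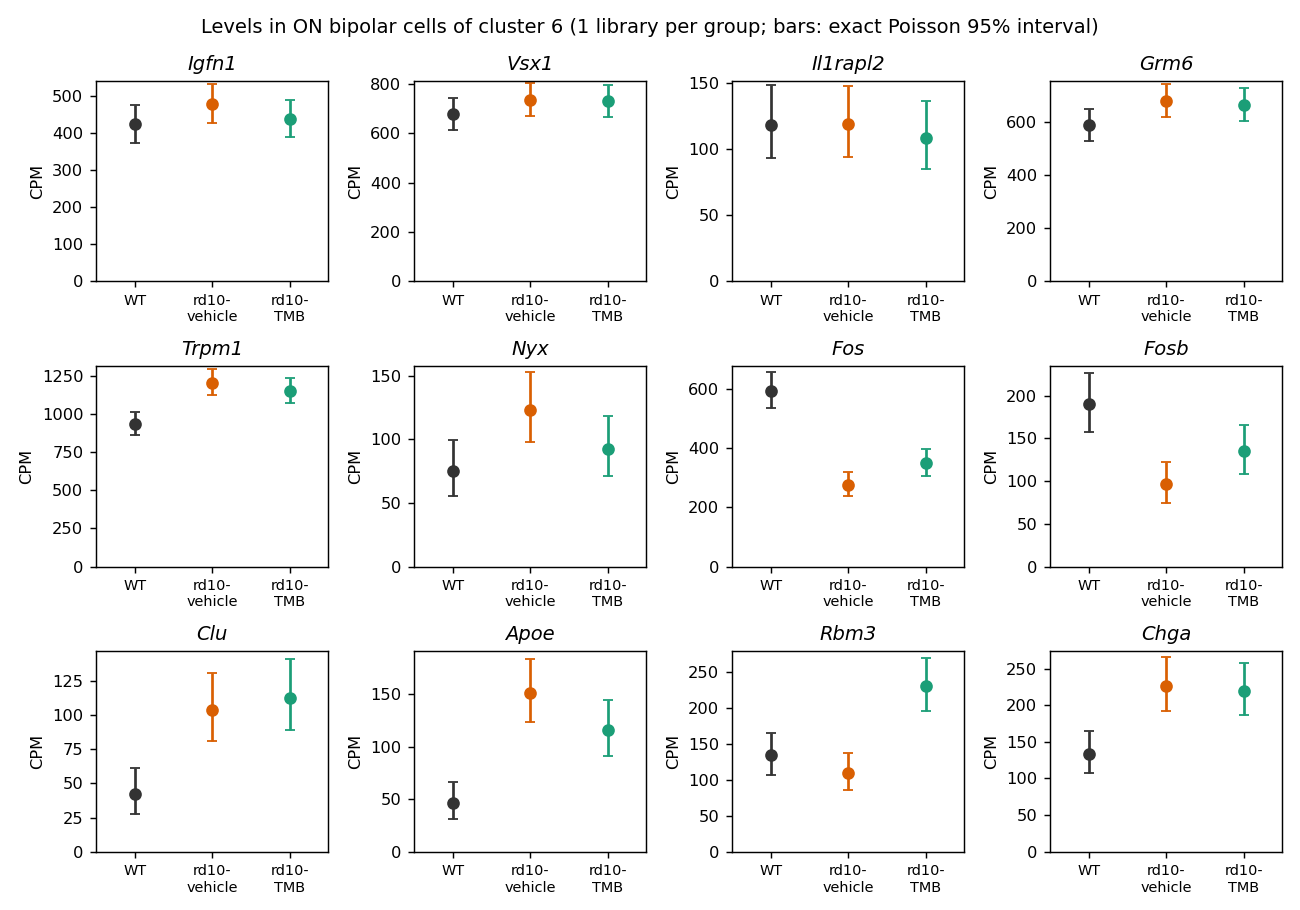
Levels (CPM, linear axes from 0, bars for exact 95% Poisson intervals) of 12 genes in the ON bipolar cells of each library. The bars of Igfn1, Vsx1 and Il1rapl2 overlap in all 3 libraries, whereas Fos and Fosb are highest in WT, Apoe, Clu and Chga are lowest in WT, and Rbm3 is highest in rd10-TMB.

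The immediate-early gene Fos (chr12:85473890-85477274), a transcription factor that neurons induce on activity, was among the largest differences. It was at 593 (WT), 276 (rd10-vehicle) and 350.3 CPM (rd10-TMB), from 381, 186 and 239 UMIs, so both rd10 libraries were below WT (-1.10, -1.37 to -0.85, and -0.76, -0.999 to -0.522). It was detected in 80.3%, 50.6% and 55.3% of the cells, and in 42.5%, 17.8% and 25.9% at equal depth. Its partner Fosb had the same order, at 189.9, 96.3 and 135 CPM (-0.97, -1.44 to -0.53, for rd10-vehicle). Jund, of the same family of factors, was at 309.7, 316 and 352 CPM and did not have it. Of 10 immediate-early genes measured in rd10-vehicle against WT, 5 were higher and 5 lower (median -0.03), where 50.8% of all genes were higher. The list as a whole thus lay near that share and did not have the direction of Fos and Fosb.

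The lower Fos was found in the type 7-like cells. In the 404 cells with Igfn1 or Vsx1, Fos was at 578, 230.1 and 292 CPM (rd10-vehicle over WT -1.32, -1.62 to -1.04), whereas in the 61 other ON cells it was at 801, 858 and 840.4 CPM (0.09, -0.58 to 0.79). The last interval rests on 35, 42 and 61 UMIs. In other bipolar clusters the ratio for Fos was 0.92 in cluster 2, -0.01 in cluster 3, 0.18 in cluster 7, 0.15 in cluster 8 and -0.23 in cluster 10, but -0.90 in the ON cells of cluster 10 alone, so a lower Fos in rd10-vehicle was found there too. In rods a Fos UMI was found in 40.3% of WT cells, 64.7% with vehicle and 66.8% with TMB, so that both rd10 libraries were above WT. Why the clusters differ was not tested.

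Beside Fos, the genes at least 2-fold apart between rd10-vehicle and WT included Apoe, higher, and Gnb1 (with 101 UMIs in all) and Gsdme, lower. With equal weight per cell Fos was at -0.90 and Gsdme at -0.97, just within 2-fold. Gsdme, a member of the gasdermin family of pore-forming proteins, was at 112 (WT), 54.8 (rd10-vehicle) and 52.8 CPM (rd10-TMB) (-1.01, -1.64 to -0.44, and -1.07, -1.71 to -0.49). Below the 2-fold limit, Chga, the secretory granule protein chromogranin A, was higher in both rd10 libraries, at 134, 227 and 219.9 CPM (0.75, 0.37 to 1.16, in rd10-vehicle). Hmgb3, a chromatin protein, was at 51.4, 101 and 76.2 CPM, and Sdf2, a protein of the endoplasmic reticulum, at 65.4, 123 and 111 CPM.

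For rd10-TMB against WT the 6 genes were Apoe and Clu, higher, and Gsdme, Strn4, Synpr and AC149090.1, lower. AC149090.1 was at 433 (WT), 228 (rd10-vehicle) and 193 CPM (rd10-TMB) (-0.92, -1.22 to -0.63, and -1.16, -1.47 to -0.86). It was lower in rd10-TMB than in WT in every other bipolar cluster too, by a log2 ratio of -1.05 to -1.78 for AC149090.1. Synpr, a synaptic vesicle protein, was at 102.7, 57.8 and 49.8 CPM, and Strn4, a striatin, at 106, 84.5 and 49.8 CPM. Several of the 6 came within 2-fold of WT under another setting. With WT reduced to its female-like cells, Clu was at 0.83 with TMB and 0.71 with vehicle. Gsdme was at -0.17 with TMB when each cell was thinned to 1000 UMIs, Synpr at -0.83 with equal weight per cell, and Strn4 at -0.96 without the 5% of cells with the most UMIs.

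The 3 genes at least 2-fold apart between rd10-TMB and rd10-vehicle were all higher with the drugs and included Rbm3 and Cck. Rbm3, an RNA-binding protein induced by cold, was at 134 (WT), 109.7 (rd10-vehicle) and 230.1 CPM (rd10-TMB) (chrX:8138975-8145880). With TMB it was 1.06 (0.66 to 1.49) above vehicle on the log2 scale, and the gene was found in 58.7% against 31.5% of the cells. It was higher in rd10-TMB in the other bipolar clusters as well, with log2 ratios for Rbm3 from 0.40 in cluster 8 to 0.73 in cluster 7. Cck (chr9:121489824-121495694) was at 24.9, 53.4 and 113 CPM, but it was found in only 10, 9 and 13 cells, and 6 cells of rd10-TMB held 67 of its 77 UMIs. Without the 61 cells that lacked both Igfn1 and Vsx1, Cck had 2, 16 and 27 UMIs, and its ratio with TMB over vehicle was 0.76, or 0.49 without the 5% of cells with the most UMIs.

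In the 404 type 7-like cells alone, the genes at least 2-fold apart were 6 of 2339 (0.257%) for rd10-vehicle and WT, among them Apoe, higher, and Fos, Fosb, Gnat1 and Gsdme, lower. They were 2 of 2320 (0.0862%) for rd10-TMB and WT, Gsdme and AC149090.1, both lower. For rd10-TMB and rd10-vehicle they were 2 of 2386 (0.0838%), both higher, among them Rbm3. For rd10-TMB over WT the genes Apoe (1.13, 0.51 to 1.84), Clu (1.23, 0.60 to 1.97), Strn4 (-1.19) and Synpr (-1.004) still had log2 ratios of 2-fold or more in these cells, but each had fewer than 100 UMIs over that pair and so was not counted.

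Transcripts of other cell types moved with the groups in the ON bipolar cells. All 11 rod genes with 20 UMIs were lower in rd10-vehicle than in WT (median -0.67, where 50.8% of all genes were higher), and 10 of 11 were higher in rd10-TMB than with vehicle (median 0.56, background 49.4%). The summed rod list was 1273, 659.5 and 1107 CPM. This is the order of the share of rods among the cells of the 3 libraries. Gnat1, the alpha subunit of rod transducin, was at 115, 59.3 and 87.9 CPM (-0.94, -1.55 to -0.38, for rd10-vehicle over WT), and Gngt1, its gamma subunit, at 127.6, 97.8 and 185 CPM (0.91, 0.48 to 1.37, with TMB over vehicle). The part of free rod RNA in these values was not tested.

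The Müller glia list differed from WT in the opposite direction. Apoe, a lipid carrier, was at 46.7, 151 and 116 CPM (1.66, 1.10 to 2.33, for rd10-vehicle over WT), and Clu, clusterin, at 42.0, 104 and 113 CPM (1.27, 0.645 to 2.002). They were found in few WT cells. An Apoe UMI occurred in 12.4% of WT cells, 41.0% with vehicle and 36.7% with TMB, and 10 of the 30 WT UMIs were in 1 cell. All 4 measured Müller genes were higher in rd10-vehicle than in WT (median 0.78, background 50.8%), and the summed list was 232, 439 and 396 CPM. In the other bipolar clusters the ratio for Apoe was between 1.82 and 3.02, above that in the ON bipolar cells here. The part of free glial RNA in these values was not tested. Of 5 measured cone genes 4 were higher with TMB than with vehicle (median 0.39, background 49.4%), and the cone list summed to 356, 331 and 501 CPM. The lists of OFF cone bipolar, amacrine, ganglion cell, astrocyte, microglia, endothelial, pericyte and lens genes had no member with 20 UMIs over any pair of libraries in the ON bipolar cells, and the amacrine list summed to 40.5, 17.8 and 13.2 CPM.

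Small differences between the rd10 libraries ran through long lists. Nuclear genes of the respiratory chain were higher in rd10-TMB than with vehicle for 66 of 77 genes (median log2 0.17, background 49.4%), and higher than in WT for 64 of 77 (median 0.13, background 52.1%). For rd10-vehicle and WT they split into 34 higher and 43 lower (median -0.05, which turned to 0.02 with equal weight per cell), where 50.8% of all genes were higher. The cytosolic ribosomal protein genes were lower in rd10-vehicle than in WT for 66 of 80 (median -0.12, beside the same 50.8%). They were higher in rd10-TMB than with vehicle for 68 of 80 (median 0.11, background 49.4%). In cluster 3 the ribosomal list was higher in rd10-vehicle than in WT for 77 of 80 genes (median 0.23, where 46.5% of all genes of cluster 3 were higher), and for 73 of 80 (median 0.17) without its amacrine-marker cells, so the order of the libraries was not the same in the most similar cluster. None of these list medians reached the 2-fold limit, and the members of a list are not replicates.

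Genes encoded by the mitochondrial genome did not follow the nuclear ones. Of 13, 12 were lower in rd10-TMB than with vehicle (median -0.09, where 49.4% of all genes were higher) and 12 lower than in WT (median -0.20, where 52.1% were higher). Glycolysis genes were higher in rd10-TMB than with vehicle for 11 of 16 (median 0.02, beside the same 49.4%), with Aldoa, aldolase A, at 1667 (WT), 1848 (rd10-vehicle) and 2073 CPM (rd10-TMB). Gapdh was at 2261, 2348 and 2486 CPM.

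**Figure D5:**
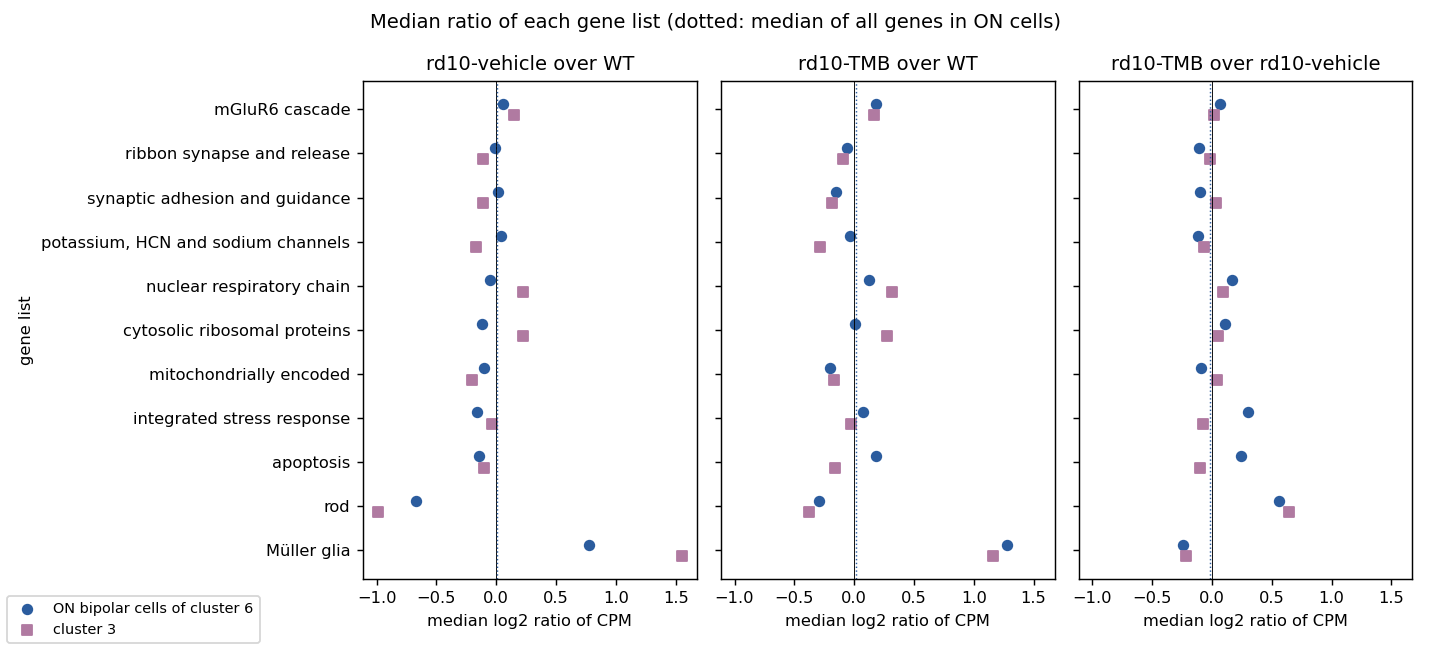
Median log2 ratio of CPM (horizontal axis) for 11 gene lists in the ON bipolar cells of cluster 6 (circles) and in cluster 3 (squares), in the 3 comparisons, with a dotted line at the median of all genes. The rod and Müller glia lists lie farthest from 0, and for rd10-vehicle over WT the ribosomal protein list lies below 0 in the ON bipolar cells and above 0 in cluster 3.

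Lists of synaptic and channel genes held more lower than higher members with TMB, by small amounts. Of 24 genes of synaptic adhesion and guidance, 6 were higher and 18 lower in rd10-TMB than in WT (median -0.16, where 52.1% of all genes were higher), while 14 were higher and 10 lower in rd10-vehicle (median 0.02). Nrxn3, a presynaptic neurexin, was at 1559, 1583 and 1297 CPM, 0.29 lower in rd10-TMB than with vehicle on the log2 scale (-0.42 to -0.16). Ntm, the adhesion protein neurotrimin, was at 834, 842 and 683 CPM. Ribbon synapse and release genes were lower in rd10-TMB than with vehicle for 16 of 22 (median -0.11, where 49.4% of all genes were higher) and split into 8 higher and 14 lower against WT (median -0.06), although Syt1, the calcium sensor of release, at 1492, 1663 and 1527 CPM, and Snap25, of the fusion complex, at 1033, 1058 and 1093 CPM, differed little. Of the potassium, HCN and sodium channel genes 14 of 17 were lower in rd10-TMB than with vehicle (median -0.11). Kcnb2, a potassium channel subunit, was at 333, 299 and 240.4 CPM and Kcnma1, the large-conductance potassium channel, at 1198, 1363 and 1288 CPM.

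Stress lists had few members above the limit on UMIs, and of all genes 49.4% were higher in rd10-TMB than with vehicle and 50.8% higher with vehicle than in WT. All 8 genes of the integrated stress response were higher in rd10-TMB than with vehicle (median 0.30), among them Atf4, its main transcription factor, at 102.7, 106.7 and 152 CPM, and Herpud1, of protein degradation at the endoplasmic reticulum, at 121, 114 and 161 CPM. In rd10-vehicle against WT 6 of the 8 were lower (median -0.16). Of 9 apoptosis genes, 8 were higher in rd10-TMB than with vehicle (median 0.25), with Cycs, cytochrome c, at 140.1, 159 and 186 CPM. Heat shock genes split into 7 higher and 7 lower in that pair, with Hsp90aa1 at 2426, 2496 and 2341 CPM. Of the clock output genes 8 of 10 were lower in rd10-TMB than with vehicle (median -0.16), with Dbp at 692, 747 and 611 CPM.

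Of 12 dopamine and adrenergic receptor genes, the families that the 3 drugs act on, 3 had at least 20 UMIs in the ON bipolar cells. Drd1, the D1 dopamine receptor, was at 205, 167 and 169 CPM. Drd2, the D2 dopamine receptor, was at 90.3, 75.6 and 107 CPM, and Adra2c was at 152.5, 181 and 195 CPM. No interval of their ratios left out 0. The alpha-1 and beta-1 adrenergic receptor genes that were listed did not reach that limit, so a difference in them was not detectable at this depth.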

How the data were processed

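The authors used Cell Ranger 6.0.1 with an mm10 reference, joined the libraries with Cumulus, removed doublets with Scrublet, kept cells with 500 or more detected genes in Seurat 3.2.2 and clustered them after Harmony correction. The deposited matrix gives natural log values, ln(1 + UMIs per 10000), for 18545 genes. The deposited cell table holds each cell's total count, library and cluster. UMI counts were rebuilt from both, and 100% of 32620606 entries were whole within 0.001. The authors' clusters were used as they stand, and no further cells or doublets were removed.

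UMIs were summed per library, since cells are not replicates, and scaled to CPM. Log2 ratios carry a pseudocount of 1 UMI. Intervals are exact at 95% (Poisson for sums, Clopper-Pearson for shares, conditional binomial for ratios). Genes needed 100 UMIs over the pair to be counted as 2-fold apart and 20 UMIs to enter the counts of the 42 lists. For equal depth each cell was thinned to 1000 UMIs. A count of 0 was given the limit that 3 counts would set.

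The members, lists and alternatives were chosen with earlier results of these data known. Genes were named if they belonged to the marker, mGluR6, bipolar type or transcription factor lists with 20 UMIs, if they were among the 8 highest or lowest ratios of a pair with 100 UMIs, if they were list members 2-fold apart or the 2 most abundant of a list, or if they were among the 15 that led the cluster over the other bipolar clusters. Sex-linked and mitochondrial genes were left out of the ranked part. The division into ON bipolar and amacrine-marker cells, the rankings within each, and the genes described for the 61 cells were chosen after the values were seen. Coordinates are from the RefSeq annotation of mm10. The Pde6b change is a point mutation that UMI counts do not show, so genotypes were not checked. Some genes that met the naming rule are not reported here. The ratio code was tested on simulated counts. Python 3.11.15, numpy 2.4.6, scipy 1.17.1, pandas 2.3.3 and matplotlib 3.10.9 were used.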

Additional observations from a re-analysis of the deposited data

How the results depend on the processing

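The counts of genes 2-fold apart depended on the settings. In the whole cluster (rd10-vehicle over WT, rd10-TMB over WT, rd10-TMB over rd10-vehicle; 81, 77 and 4 as reported) they were 201, 196 and 14 with a minimum of 50 UMIs, 35, 32 and 2 with 200, and 278, 289 and 51 at a 1.5-fold limit. Without the 5% of cells with the most UMIs the first pair were 53 and 47, with WT reduced to the 77 cells that carried Xist but none of the Y-linked UMIs 34 and 32, and in the ON bipolar cells alone 5 and 6. In cells with a UMI of Igfn1 or Vsx1 they were 7, 3 and 2, with each cell thinned to 1000 UMIs 13, 8 and 1, and with equal weight per cell the last was 7. In the ON bipolar cells (5, 6 and 3) they were 33, 40 and 15 with 50 UMIs, 2 and 1 for the comparisons with WT with 200, 81, 71 and 50 at 1.5-fold, 16, 17 and 5 with equal weight, and 2, 0 and 0 when thinned, where few genes keep 100 UMIs. For rd10-TMB over WT it was 3 in cells with at least 1000 genes, 3 without the 5% deepest cells and 2 in cells with Igfn1 or Vsx1, and for rd10-TMB over rd10-vehicle it was 5 in cells with at least 8 ON UMIs and at most 1 amacrine UMI. Car8 and Fbxw7 turned direction in the whole cluster. The log2 ratio of Car8 for rd10-TMB over WT was 0.54 in the ON bipolar cells and 0.81 in cells with Igfn1 or Vsx1, and that of Fbxw7 for rd10-vehicle over WT was 0.027 in the ON bipolar cells, where in both cases the amacrine-marker cells had been left out. Shares of the whole cluster were 11.96%, 9.761% and 9.572% of the bipolar clusters in WT, rd10-vehicle and rd10-TMB, and 6.395%, 6.198% and 6.557% outside the rod and Müller clusters. The WT share was 5.227% among cells with 1000 genes and 3.059% for ON bipolar cells alone. Those of the ON bipolar cells were 9.257%, 9.653% and 9.446% of the bipolar clusters, 4.949%, 6.129% and 6.471% outside the rod and Müller clusters, and 3.986% in WT among cells with 1000 genes.

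Over the 12 alternatives in the ON bipolar cells (11 where WT was not involved) the log2 ratio of Fos for rd10-vehicle over WT ran from -1.32 to -0.90 (-1.04 with WT cells that had Xist), that of Apoe from 1.33 to 2.69 and that of Trpm1 from 0.26 to 0.40. The ratio of Rbm3 for rd10-TMB over rd10-vehicle ran from 1.02 to 1.18. Igfn1 turned to -0.08 for rd10-vehicle over WT with WT cells that had Xist, where Gnb3 was at 0.13, and at 0.04 for rd10-TMB over WT. Gsdme for rd10-TMB over WT ran from -1.29 to -0.17, the last when thinned, and Clu from 0.83 to 1.53, the first with WT cells that had Xist. The median of the respiratory chain list for rd10-TMB over rd10-vehicle ran from 0.14 to 0.17, and that of the ribosomal protein list from 0.10 to 0.15. The causes of these shifts were not tested.

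No paired analysis was possible because each group was 1 library, and for the same reason there was no replicate to leave out. Intervals cover counting error only and not differences between animals, preparations or libraries. Of the 465 ON bipolar cells, 137 were WT cells, and transcripts with fewer than 20 UMIs over a pair were not compared.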

Other observations

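Onecut2, a transcription factor listed here as a horizontal cell gene, had 9 (WT), 30 (rd10-vehicle) and 28 UMIs (rd10-TMB) in the ON bipolar cells. Prkca was at 18.7, 13.3 and 41.0 CPM, and 21 of its 28 UMIs in rd10-TMB were in 2 cells.

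Of the genes of cAMP enzymes and effectors, 11 of 17 were lower in rd10-vehicle and 11 of 18 lower in rd10-TMB than in WT (medians -0.15 and -0.17), where 50.8% and 52.1% of all genes were higher, and with so few members these counts are not read as a direction. Of the neurite and cytoskeleton genes 10 of 12 were lower in rd10-TMB than in WT (median -0.20, beside the same 52.1%). The 18 measured bipolar transcription factors split into 9 higher and 9 lower for rd10-TMB over WT (median 0.00).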
